A study of Mus musculus with 16 samples.

Results

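The 8 genes described here encode 6 chemokine receptors (Ccr2, Ccr7, Cxcr3, Cxcr4, Cxcr6 and Cx3cr1), the chemokine receptor-like protein CCRL2 (Ccrl2) and the homing receptor GPR15 (Gpr15). They were taken by symbol from the 49671 genes of a mouse count table, each symbol matched exactly 1 row, and all 8 were among the 13940 genes that passed the filter on low counts. The table holds RNA of natural killer (NK) cells, which were sorted as live cells positive for CD45, NKp46 and DX5 and negative for CD3, at 5 to 10K cells per library. Every mouse carried the genotype Cdh1F/F;Trp53F/F;Foxp3GFP-DTR on an FVB/N background and a KEP mammary tumour, transplanted orthotopically, of 100 mm2. In this genotype the diphtheria toxin (DT) receptor is joined to Foxp3, the lineage gene of regulatory T cells. The label names no Cre and gives no age. The 4 groups of 4 libraries were NK cells of the axillary lymph node (LN) that drains the tumour or of the lung, from mice given 25 ug of DT or PBS at T = 0 and T = 7 (the unit of T is not stated). The titles call the mice given PBS untreated. Only the lungs are described as digested with an enzyme (100 ug/mL Liberase Tm for 30 minutes at 37 degrees C) and cleared of erythrocytes, so tissue and digestion cannot be told apart. The design speaks of 4 biological replicates per group, and each library is taken as 1 animal. In RNA of a sorted population, fewer cells of a type and less RNA per cell cannot be told apart.

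Chemokines are small secreted proteins that guide the migration of leukocytes. Their receptors span the membrane with several helices and signal through inhibitory G proteins to the cytoskeleton and to integrins. CCR7 leads lymphocytes and dendritic cells into lymph nodes along CCL19 and CCL21. CXCR3 answers the interferon-induced ligands CXCL9, CXCL10 and CXCL11, and CXCR6 binds CXCL16 and is known from tissue-resident lymphocytes. CCR2 responds to CCL2 and related ligands, CXCR4 to CXCL12 and CX3CR1 to fractalkine (CX3CL1). CCRL2 binds the chemoattractant chemerin (Rarres2) without signalling in the usual way. GPR15 directs T cells to the gut and skin. On NK cells, CXCR3, CXCR6 and CCR7 are known from less mature or resident cells, and CX3CR1 from mature circulating cells.

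Total counts per library lay between 3929560 and 10744934. Ncr1, which encodes NKp46, lay between 2457 and 7917 CPM (counts scaled to library size, here adjusted by TMM) in all 16 libraries, and was itself lower in lung than in LN of DT mice (log2 -0.89, SE 0.25, adjusted p = 0.0381 by edgeR). Cd3e, the negative marker of the gate, lay between 6.82 and 30.2 CPM in LN and at 9.76 CPM or less in lung. Of the 16 libraries, replicate 1 of LN DT and replicate 1 of lung DT lay far from the rest on principal component 2 of log2 CPM, at 108 and 152 where no other library exceeded 19.6. Mitochondrial transcripts took 3.11% to 4.4% of the counts in lung DT, against 0.951% to 2.57% in lung PBS. They took 4.93%, 4.18%, 4.01% and 1.24% in LN DT replicates 1 to 4, against 1.05% to 1.68% in LN PBS. Results are therefore also given without both DT libraries numbered 1 where this changes a call or a direction.

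The receptor genes divided by tissue. In mice given PBS, Cxcr3, Cxcr6, Gpr15 and Ccr2 were lower in lung than in LN NK cells, by 15.4-, 17.6-, 35.3- and 2.30-fold, and Cxcr4 and Cx3cr1 were higher in lung, by 5.63- and 7.81-fold. These 6 of 8 genes passed an adjusted p of 0.05 in edgeR's quasi-likelihood test, against 3.61% of all tested genes (2.7% higher and 0.904% lower in lung). In mice given DT, 6 of 8 passed again, against 6.75% of all tested genes (3.97% higher and 2.78% lower): Cxcr3, Cxcr6, Gpr15 and Ccr2 were lower in lung, and Cxcr4 and Ccrl2 were higher. The libraries of LN and lung did not overlap for 7 of the 8 genes in PBS (all but Cxcr4; 2 higher and 5 lower in lung), against 19.2% of all tested genes (9.25% higher and 9.91% lower). In DT they did not overlap for 7 of 8 (all but Cx3cr1; 2 higher and 5 lower), against 11.6% (5.57% higher and 6.08% lower). The median log2 fold change of lung over LN was -1.61 in PBS and -1.74 in DT over the 8 genes, and -0.01 and -0.04 over all tested genes. By the same test DT gave no called change of any of the 8 genes within a tissue. That test called few genes at all for DT, 0.0646% of all tested genes in LN and 0.108% in lung.

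**Figure D1:**
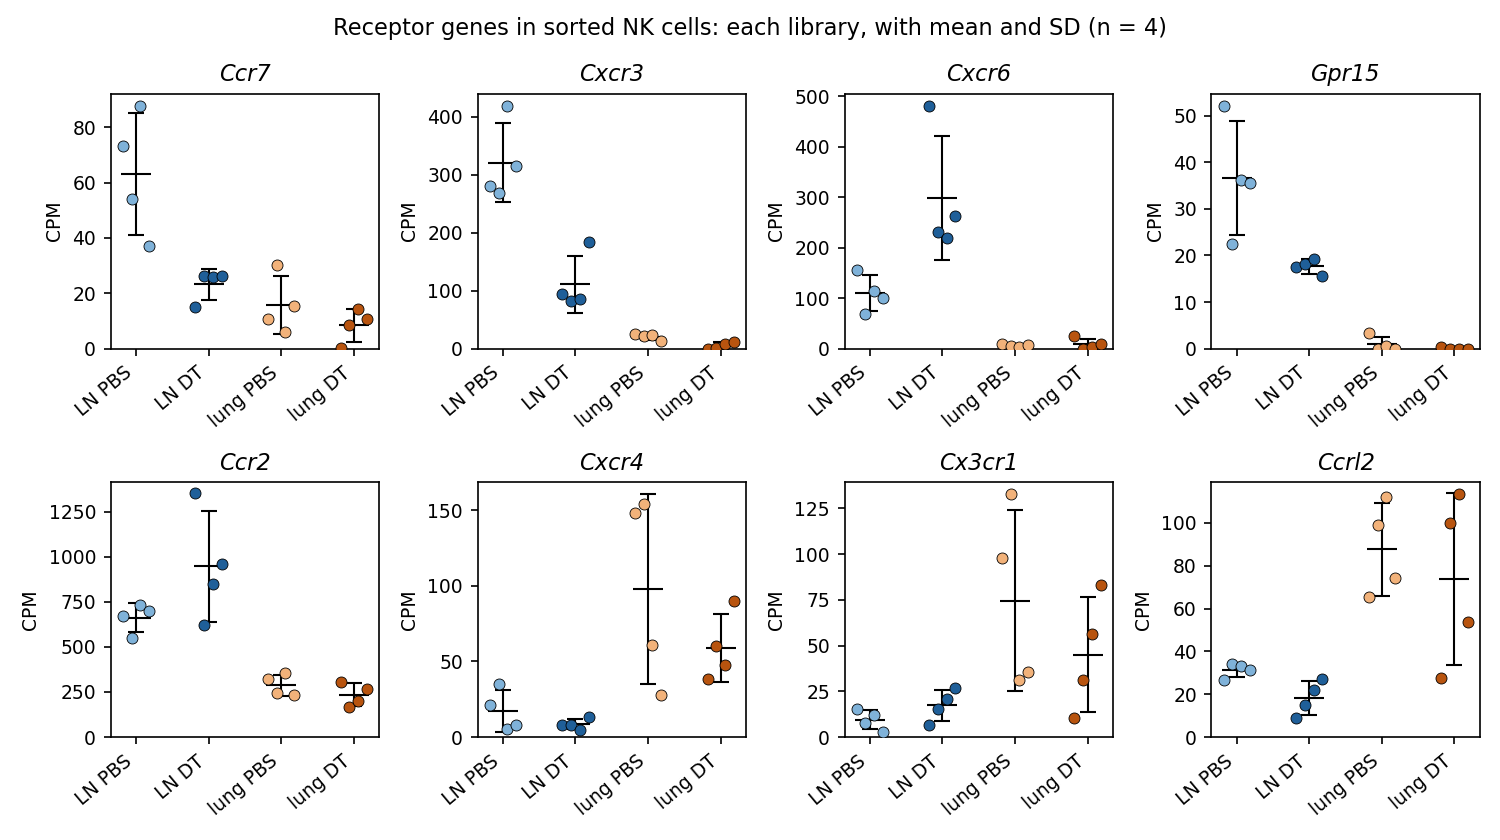
Level of each receptor gene in CPM (linear vertical axis, a separate scale per gene) in the 4 groups. Each point is 1 library, and the bars show the mean and SD over 4 libraries. Cxcr3, Cxcr6, Gpr15 and Ccr2 lie higher in both LN groups than in both lung groups, and within LN the points of DT lie above those of PBS for Cxcr6 and below them for Ccr7, Cxcr3 and Gpr15.

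Cxcr3 (ENSMUSG00000050232; GRCm38 chromosome X, 101731535 to 101734269, minus strand) was the most abundant of the 8 transcripts per kilobase in LN PBS. It stood at 281, 268, 419.6 and 316 CPM in LN PBS replicates 1 to 4 and at 94.1, 81.3, 85.3 and 185 CPM in LN DT. In lung PBS it stood at 25.5, 21.4, 23.3 and 12.9 CPM, and in lung DT at 0, 0.250, 8.03 and 12.1 CPM. The LN groups therefore lay above the lung groups, and within each tissue PBS lay above DT, with no overlap at any of these steps. Lung was 15.4-fold lower than LN in PBS (log2 fold change -3.95, SE 0.80, adjusted p = 0.00857 by edgeR) and 21.8-fold lower in DT (-4.45, SE 0.83, adjusted p = 0.00452). Without lung DT replicate 4 the fold in DT was 40.4 (log2 -5.34).

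Cxcr6 (ENSMUSG00000048521; GRCm38 chromosome 9, 123806475 to 123811760, plus strand) showed the same contrast of tissues and the opposite order of the LN groups. It stood at 155, 68.6, 115 and 99.5 CPM in LN PBS and at 482, 231, 219.8 and 263 CPM in LN DT. In lung it stood at 8.44, 5.27, 3.99 and 6.95 CPM with PBS and at 24.0, 0.125, 3.32 and 9.04 CPM with DT. The 2 lung groups overlapped, and no other neighbours in the order LN DT, LN PBS, lung DT, lung PBS did. Lung was 17.6-fold lower than LN in PBS (log2 -4.14, SE 0.77, adjusted p = 0.0046 by edgeR) and 32.9-fold lower in DT (-5.04, SE 0.79, adjusted p = 0.00110). Without lung DT replicate 1 the fold in DT was 69.5 (log2 -6.12), and without both DT libraries numbered 1 it was 57.8. The gene lies inside the span of Fyco1, on the other strand, and shares no exon base with it.

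Upstream sequence of Cxcr3 and Cxcr6 is shown because these 2 genes shared their contrast of tissues while their LN groups were ordered in opposite ways. Both stretches come from RefSeq's promoter windows (GRCm38.p6), 5' to 3' on the gene's strand, and are limited to the bases that no GENCODE vM21 exon covers. The Cxcr3 stretch is chrX:101734270-101734397, minus strand, 128 bases. The Cxcr6 stretch is chr9:123806227-123806474, plus strand, 248 bases. Capitals mark TCACAC, a core of T-box sites, and TGTGGT or its complement ACCACA, a core of RUNX sites.
Cxcr3: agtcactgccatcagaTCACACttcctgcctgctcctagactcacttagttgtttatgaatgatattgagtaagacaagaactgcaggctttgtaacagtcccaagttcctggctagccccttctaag
Cxcr6: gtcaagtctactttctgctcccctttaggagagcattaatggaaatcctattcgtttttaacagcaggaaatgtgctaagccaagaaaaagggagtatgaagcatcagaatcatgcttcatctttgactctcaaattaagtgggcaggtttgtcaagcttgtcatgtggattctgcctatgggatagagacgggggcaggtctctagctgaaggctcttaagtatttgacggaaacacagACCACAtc
In the full windows of 250 bases before RefSeq's starts, searched on both strands, 7 of the 8 genes had an entry. GENCODE places the starts of Cxcr3, Gpr15 and Cx3cr1 farther upstream, so part or all of their windows, with the RUNX words counted for them, lies inside the GENCODE gene span. Parts of the Ccrl2 and Ccr2 windows do so too. TGTGGT or ACCACA was found for 4 of these 7 genes (Cxcr3, Cxcr6, Gpr15 and Cx3cr1), against 14% of all 32851 windows of that length. TCACAC or GTGTGA was found for 2 (Cxcr3 and Ccrl2), against 12.3%. CCACCC or GGGTGG, a core of KLF sites, was found for 2 (Ccrl2 and Cx3cr1), against 28.1%. ACGTG or CACGT was found for 1 (Ccrl2), against 16.6%, and TGTTTAC or GTAAACA for 0, against 3.17%. These shares are per window, while a gene is counted if any of its windows holds the word. Ccrl2 had several overlapping windows, so the 7 genes had 9 windows. Counted by window, the RUNX word was found in 4 of 9, TCACAC in 4, CCACCC in 3, ACGTG in 3 and TGTTTAC in 0, complements included. The 4 genes with a RUNX core include 3 that were higher in LN and 1, Cx3cr1, that was higher in lung. A match is a description of the letters and not a binding site.

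Gpr15 (ENSMUSG00000047293; GRCm38 chromosome 16, 58717435 to 58718724, minus strand) was the gene of the 8 whose lung libraries came closest to 0. It stood at 52.2, 22.4, 36.2 and 35.6 CPM in LN PBS and at 17.5, 18.2, 19.3 and 15.6 CPM in LN DT. The lung PBS libraries held 33, 0, 4 and 0 counts (3.28, 0, 0.483 and 0 CPM), and the lung DT libraries held 2, 0, 0 and 0. LN and lung did not overlap in either treatment, and LN PBS lay above LN DT in every library. Lung was 35.3-fold lower than LN in PBS (log2 -5.14, SE 0.99, adjusted p = 0.00596 by edgeR). Without lung PBS replicate 1, which leaves 4 counts in that group, the log2 fold change was -7.47, so the size of the fold rests on that library. In DT the gene was called lower in lung (adjusted p = 0.00127 by edgeR). With 542 counts in LN DT against 2 in lung DT, the ratio scaled for library size was 262 (95% counting interval 72.3 to 2171, counting error only). In GENCODE vM21 Gpr15 shares 204 exon bases with Cpox on the other strand. The library method keeps no strand, so reads there cannot be assigned to 1 gene with certainty.

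Ccr2 (ENSMUSG00000049103; GRCm38 chromosome 9, 124101950 to 124113557, plus strand) had the most counts of the 8 genes in every group and, in PBS mice, the smallest fold between the tissues. It stood at 672, 547, 729.8 and 697 CPM in LN PBS and at 1355, 620.3, 849 and 960.3 CPM in LN DT. In lung it stood at 321, 242, 353 and 236 CPM with PBS and at 307, 169, 201 and 267 CPM with DT. All 8 LN libraries lay above all 8 lung libraries, while the treatments overlapped within each tissue. Lung was 2.30-fold lower in PBS (log2 -1.20, SE 0.27, adjusted p = 0.0167 by edgeR) and 4.02-fold lower in DT (-2.01, SE 0.28, adjusted p = 3.36e-04). Ccr2 also varied least between replicates, with a biological coefficient of variation of 0.284 against 0.402 to 0.756 for the other 7 genes.

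Ccr7 (ENSMUSG00000037944; GRCm38 chromosome 11, 99144196 to 99155077, minus strand), the lymph node homing receptor, was not called between the tissues. It stood at 73.4, 54.2, 87.9 and 37.2 CPM in LN PBS and at 14.9, 26.3, 25.7 and 26.2 CPM in LN DT. In lung it stood at 10.8, 30.3, 6.16 and 15.4 CPM with PBS and at 0.143, 8.39, 14.4 and 10.74 CPM with DT. LN and lung did not overlap within a treatment, and LN PBS lay above LN DT in every library, but LN DT and lung PBS overlapped. The log2 fold change of lung against LN was -2.02 in PBS (SE 0.70, adjusted p = 0.122 by edgeR) and -1.47 in DT (SE 0.69, adjusted p = 0.234). Without both DT libraries numbered 1 the PBS contrast passed with an adjusted p of 0.00533 by edgeR. It passed likewise without lung DT replicate 1 alone (adjusted p = 0.00864), with limma-voom (0.00101), with DESeq2 (0.0336) and in a fit of the 2 PBS groups alone (0.0134).

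Cxcr4 (ENSMUSG00000045382; GRCm38 chromosome 1, 128588199 to 128592293, minus strand) was higher in lung in both treatments. It stood at 148, 154, 60.9 and 28.1 CPM in lung PBS and at 38.2, 60.1, 47.6 and 89.7 CPM in lung DT. In LN it stood at 21.1, 34.9, 5.08 and 8.14 CPM with PBS and at 8.22, 7.92, 4.93 and 13.3 CPM with DT. In PBS the lowest lung library lay below the highest LN library, and in DT the tissues did not overlap. Lung was 5.63-fold higher in PBS (log2 2.49, SE 0.59, adjusted p = 0.0246 by edgeR) and 6.83-fold higher in DT (2.77, SE 0.61, adjusted p = 0.0107). Without LN PBS replicate 2 the fold in PBS was 8.52.

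Cx3cr1 (ENSMUSG00000052336; GRCm38 chromosome 9, 119901616 to 120069879, minus strand) was the other gene called higher in lung in PBS. It stood at 97.8, 133, 31.3 and 35.6 CPM in lung PBS and at 10.2, 31.1, 56.1 and 82.9 CPM in lung DT. In LN it stood at 15.2, 7.88, 11.9 and 2.94 CPM with PBS and at 6.51, 15.3, 20.7 and 26.7 CPM with DT. The tissues did not overlap in PBS and did in DT, where lung DT replicate 1 lay among the LN libraries. Lung was 7.81-fold higher in PBS (log2 2.97, SE 0.67, adjusted p = 0.0175 by edgeR). In DT the log2 fold change was 1.38 (SE 0.63, adjusted p = 0.222), which did not pass, and the difference between these contrasts did not pass either (-1.59, SE 0.89, adjusted p = 1.00).

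Ccrl2 (ENSMUSG00000043953; GRCm38 chromosome 9, 111054486 to 111057519, minus strand) stood at 65.2, 98.8, 112 and 74.5 CPM in lung PBS and at 27.7, 100.1, 114 and 53.6 CPM in lung DT. In LN it stood at 26.8, 34.3, 33.3 and 31.2 CPM with PBS and at 8.74, 15.1, 21.8 and 27.2 CPM with DT. Lung and LN did not overlap in either treatment, although lung DT replicate 1 at 27.7 CPM lay close to the highest LN DT library at 27.2. Lung was 4.04-fold higher in DT (log2 2.02, SE 0.41, adjusted p = 0.00753 by edgeR). In PBS the log2 fold change was 1.48 (SE 0.40), and its adjusted p of 0.05004 by edgeR lay just above the threshold. It passed in 13 of 26 alternative settings (adjusted p from 7.04e-04 to 0.139).

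**Figure D2:**
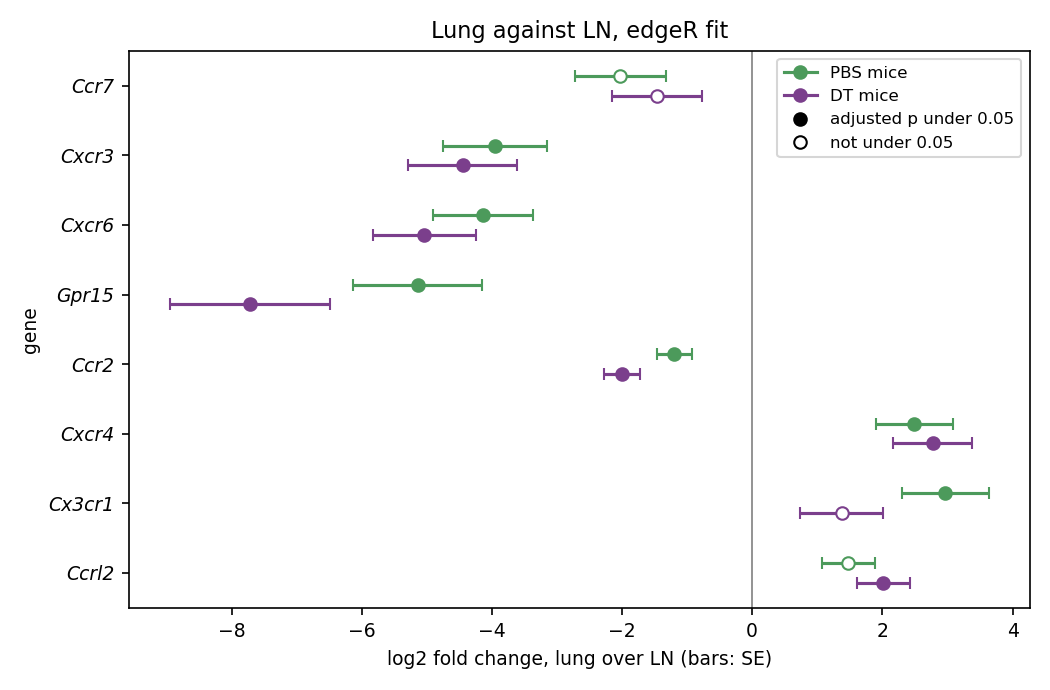
Log2 fold change of lung over LN from the edgeR fit for each gene, in PBS mice (green) and DT mice (purple). Bars are the standard error, and filled points passed an adjusted p of 0.05. Points left of 0 are lower in lung (Ccr7, Cxcr3, Cxcr6, Gpr15 and Ccr2) and points right of 0 are higher (Cxcr4, Cx3cr1 and Ccrl2). The Gpr15 point for DT rests on 2 counts in lung and its size depends on the fit.

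The calls of Cxcr6 and Gpr15 between the tissues held in all 26 alternative settings in PBS and all 27 in DT. The calls of Cxcr4, Cx3cr1 and Ccr2 in PBS were lost by edgeR when single libraries were left out. Cxcr4 was not called without LN PBS replicate 1, 3 or 4 (adjusted p = 0.0641, 0.0737 and 0.0937) or lung PBS 1 or 2 (0.0709 and 0.0769). Cx3cr1 was not called without LN PBS 2 or 4 (0.0595 and 0.0628) or lung PBS 2 (0.0648), and Ccr2 not without LN PBS 3 or 4 (0.0567 and 0.0556) or lung PBS 2 or 4 (0.0723 and 0.0618). Without LN PBS replicate 4, or without lung PBS replicate 2, 3 of the 8 genes were called, against 1.84% and 2.17% of all tested genes, and without lung DT replicate 1 all 8 were, against 6.85%. Without both DT libraries numbered 1, 8 were called in PBS, against 9.47%, and 6 in DT, against 9.67%. Cxcr3 was not called in PBS with no filter on low counts (adjusted p = 0.056 by edgeR). In a fit of the DT groups alone Cxcr3 and Ccrl2 were not called (0.078 and 0.075), which left 4, against 2.54% of all tested genes.

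Markers of other cells also differed between the tissues. The summed level of 8 T cell markers lay between 326 and 419.7 CPM in LN PBS and between 28.6 and 71.6 CPM in lung PBS, with Cd8b1 at 0 in both lung groups. Cd3g (means of 210 CPM in LN PBS and 26.1 CPM in lung PBS) and Cd3d (126 and 12.3) were the largest. Cd3e (18.9 and 1.24), Cd6 (8.04 and 1.93) and Cd5 (5.34 and 2.74) were also lower in lung. Cd4 (3.59 and 4.38) and Cd8a (0.620 and 1.66) were higher in lung. The summed level of 6 macrophage and monocyte markers lay between 34.2 and 308 CPM in LN PBS and between 263 and 2629.5 CPM in lung PBS, with all 6 detected in every group. That of 4 neutrophil markers lay between 0 and 7.44 CPM in LN PBS and between 14.4 and 87.4 CPM in lung PBS, with Retnlg and Ly6g at 0 in LN. Over 27 exact two-sided permutation tests of such sums, the T cell, neutrophil and NK cell lists reached p = 0.0286 in this comparison, the smallest that 4 against 4 libraries can give (adjusted p = 0.129), and the macrophage and monocyte list p = 0.0571. The sum of 8 NK cell markers lay between 20087 and 26271 CPM in LN PBS and between 34510.3 and 38749 CPM in lung PBS. Gzma differed most, with means of 6282 CPM in LN PBS and 17838 CPM in lung PBS. Prf1 (1564 and 2914), Nkg7 (5164 and 7376), Klrb1c (878 and 951) and Tbx21 (679 and 820) also stood higher in lung. Ncr1 (5965 and 4656), Klrk1 (1972 and 1561) and Eomes (212 and 199) stood lower in lung. The part of these cells in the receptor values was not tested. Ccr2, Cx3cr1, Cxcr4 and Ccrl2 are also known from monocytes, macrophages or neutrophils, and Ccr7, Cxcr3, Cxcr6 and Gpr15 from T cells.

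DT was compared with PBS in LN first. Of the 8 genes, 0 passed an adjusted p of 0.05 in edgeR's quasi-likelihood test, where 0.0646% of all tested genes (9 genes) did, and 0 passed with DESeq2, which called 2.34%. At an unadjusted p under 0.05 there were 3 of 8, against 11.8% of all tested genes: Cxcr6 with a positive and Ccr7 and Cxcr3 with negative fold changes. The LN DT and LN PBS libraries did not overlap for 4 of the 8 (Cxcr6 above, and Ccr7, Cxcr3 and Gpr15 below), against 8.47% of all tested genes (5.05% above and 3.42% below). The median log2 fold change was -0.90 over the 8 genes and 0.08 over all tested genes.

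Among the genes without overlap, mean Cxcr6 was 109.6 ± 36.1 CPM in LN PBS and 299 ± 123 CPM in LN DT (SD, n = 4), a log2 fold change of 1.45 (SE 0.68, adjusted p = 0.415 by edgeR). Mean Cxcr3 was 321 ± 68.6 CPM in LN PBS and 111 ± 49.2 CPM in LN DT (SD, n = 4; -1.53, SE 0.72, adjusted p = 0.423 by edgeR). Mean Ccr7 was 63.2 ± 22.1 CPM in LN PBS and 23.3 ± 5.59 CPM in LN DT (SD, n = 4; -1.44, SE 0.68, adjusted p = 0.423 by edgeR). Cxcr6 thus stood higher with DT, and Cxcr3 and Ccr7 lower, each in 4 of 4 libraries, and none passed the adjustment over 13940 genes. Mean Gpr15 was 36.6 ± 12.2 CPM in LN PBS and 17.6 ± 1.53 CPM in LN DT (SD, n = 4; -1.05, SE 0.82, adjusted p = 0.652 by edgeR). With limma-voom and sample quality weights these 4 passed: Cxcr6 at 1.18 (adjusted p = 0.00105), Cxcr3 at -1.88 (7.20e-05), Ccr7 at -1.05 (0.0166) and Gpr15 at -0.91 (0.0179). These 4 of 8 stand against 26.8% of all tested genes that limma-voom called here. When the share of mitochondrial counts entered the edgeR model, the log2 fold changes were 1.20, -0.86, -1.30 and -0.01 in the same order, with adjusted p of 1.00. That model called 0 of all 13940 tested genes for DT in LN. Most LN DT libraries had a higher mitochondrial share than LN PBS, so this fit separates DT from that share poorly. In the 25 alternative settings other than limma-voom, DESeq2 among them, none of the 4 passed.

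**Figure D3:**
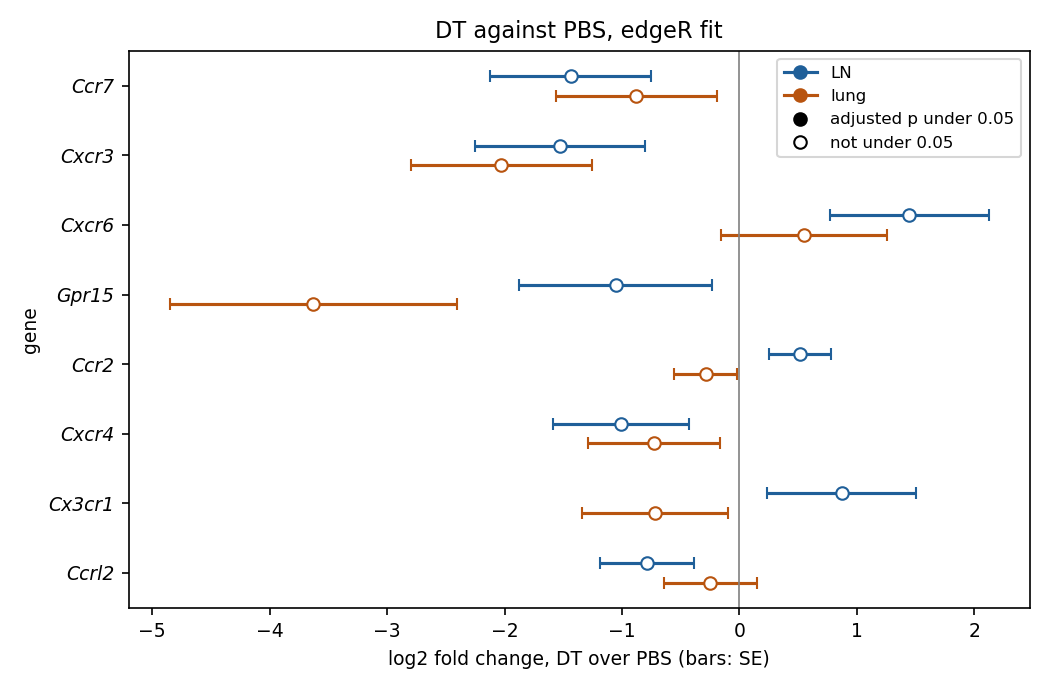
Log2 fold change of DT over PBS from the edgeR fit for each gene, in LN (blue) and lung (orange), with bars for the standard error. All points are open, since none passed an adjusted p of 0.05. The Gpr15 point for lung rests on 37 counts with PBS and 2 with DT.

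The order of Cxcr3 and Cxcr6 differed between the LN groups. The ratio of Cxcr6 to Cxcr3 counts within a library, which does not depend on scaling, was 0.553, 0.256, 0.274 and 0.315 in LN PBS and 5.12, 2.84, 2.58 and 1.42 in LN DT. Every LN PBS library held more Cxcr3 than Cxcr6 counts, and every LN DT library held more Cxcr6. The ratio of Cxcr6 to Ccr7 counts was 1.27 to 2.67 in LN PBS and 8.54 to 32.3 in LN DT, also with no overlap. LN DT replicate 1 had the highest and LN DT replicate 4, the DT library with a mitochondrial share of 1.24%, the lowest of the DT ratios of Cxcr6 to Cxcr3. These ratios were chosen after the values were seen and carry no test.

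**Figure D4:**
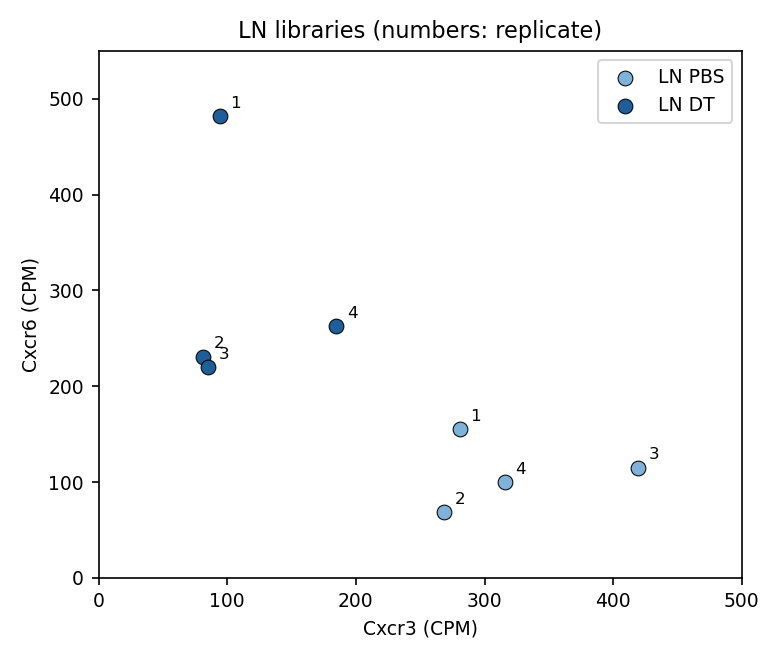
Cxcr6 against Cxcr3, both in CPM on linear axes, in the 8 LN libraries, numbered by replicate. The 4 LN PBS libraries (light) lie at 268 CPM or more of Cxcr3 and 155 CPM or less of Cxcr6, and the 4 LN DT libraries (dark) at 185 CPM or less of Cxcr3 and 219.8 CPM or more of Cxcr6.

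The other 4 genes overlapped between LN DT and LN PBS. Ccr2 was 661 ± 79.7 CPM in LN PBS and 946 ± 307 CPM in LN DT (SD, n = 4; log2 0.52, SE 0.27, adjusted p = 0.463 by edgeR). The log2 fold change was -1.01 for Cxcr4 (SE 0.58, adjusted p = 0.524 by edgeR), 0.87 for Cx3cr1 (SE 0.63, 0.627) and -0.78 for Ccrl2 (SE 0.40, 0.460).

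Summed markers of B lineage cells stood higher with DT in the LN. The summed level of 4 plasma cell markers lay between 2.42 and 11.2 CPM in LN PBS and between 212 and 866 CPM in LN DT, and that of 6 B cell markers between 63.0 and 113 and between 141 and 882 CPM, with every marker of both lists detected in both groups. Of the plasma cell markers, Ighg1 (means of 0.714 CPM with PBS and 301 CPM with DT) and Jchain (0.0613 and 201) rose most. Mzb1 (4.91 and 34.3) also stood higher with DT, and Sdc1 (0.744 and 0.449) stood lower. The 8 T cell markers summed to 278 to 462 CPM in LN DT, which overlapped their 326 to 419.7 CPM in LN PBS. The 8 NK cell markers summed to 20087 to 26271 CPM in LN PBS and 27119 to 58896 CPM in LN DT. Gzma rose most, from a mean of 6282 CPM in LN PBS to 20537 CPM in LN DT, and Klrk1 went from 1972 to 2853 CPM. Ncr1 (5965 and 6079), Prf1 (1564 and 1681) and Nkg7 (5164 and 5218) differed little. Klrb1c (878 and 577), Tbx21 (679 and 436) and Eomes (212 and 169) stood lower with DT. The plasma cell, B cell and NK cell sums each had an exact permutation p of 0.0286 (adjusted p = 0.129). Plasma cells are known to carry CXCR4, and B cells CCR7 and CXCR4; the part of these cells in the receptor values was not tested.

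The same comparison was then made in lung. Of the 8 genes, 0 passed an adjusted p of 0.05 in edgeR's quasi-likelihood test, where 0.108% of all tested genes did, and 2 passed at an unadjusted p under 0.05 (Cxcr3 and Gpr15, both lower), against 14.7%. Cxcr3 was the 1 gene without overlap, against 7.88% of all tested genes (4.53% lower). It was 20.8 ± 5.51 CPM in lung PBS and 5.08 ± 5.96 CPM in lung DT (SD, n = 4; log2 -2.03, SE 0.77, adjusted p = 0.247 by edgeR), and lung DT replicates 1 and 2 held 0 and 2 counts of it. Gpr15 had 37 counts in lung PBS, 33 of them in replicate 1, and 2 in lung DT, a ratio of 18.4 (95% counting interval 4.74 to 157, counting error only; adjusted p = 0.205 by edgeR). The lung groups of Gpr15 overlapped, and 5 of the 8 lung libraries held 0 counts of it.

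For the other 6 genes the lung groups overlapped, and the adjusted p by edgeR lay between 0.565 and 0.801. Cxcr6 went from 6.16 ± 1.94 CPM in lung PBS to 9.11 ± 10.6 CPM in lung DT (SD, n = 4; log2 0.55), and without lung DT replicate 1, which held 167 of its 261 counts, the log2 fold change was -0.62. The log2 fold changes were -0.29 for Ccr2, -0.88 for Ccr7, -0.73 for Cxcr4, -0.72 for Cx3cr1 and -0.25 for Ccrl2. With mitochondrial share in the model, those of Cxcr4, Cx3cr1 and Ccrl2 turned to 0.14, 0.24 and 0.13. That model called 1 of all 13940 tested genes for DT in lung. The mitochondrial share did not overlap between lung DT and lung PBS, so this fit separates DT from that share poorly. The median over the 8 genes was -0.72, and 0.09 over all tested genes.

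Markers of other cells were also summed in the lung groups. The 8 T cell markers lay between 28.6 and 71.6 CPM in lung PBS and between 63.7 and 372 CPM in lung DT, with the highest value in replicate 1 and Cd8b1 at 0 in both groups (exact permutation p = 0.0571, adjusted p = 0.193). Cd3g (means of 26.1 CPM with PBS and 78.8 CPM with DT) and Cd3d (12.3 and 48.9) were the largest, and Cd4 (4.38 and 3.34) was lower with DT. The 6 macrophage and monocyte markers lay between 263 and 2629.5 CPM in lung PBS and between 129 and 3665 CPM in lung DT (exact permutation p = 0.257, adjusted p = 0.434), and the 4 neutrophil markers between 14.4 and 87.4 and between 6.03 and 256 CPM. All 3 sums overlapped between the lung groups, and their part in the receptor values was not tested.

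The response to DT was then compared between the tissues with the interaction term, the lung fold change minus the LN fold change. Of the 8 genes, 0 passed an adjusted p of 0.05 in edgeR, where 0.00717% of all tested genes (1 gene) did. At an unadjusted p under 0.05 there was 1, Ccr2, against 4.2% of all tested genes. Its log2 fold change with DT was 0.52 in LN and -0.29 in lung, a difference of -0.81 (SE 0.38, adjusted p = 1.00 by edgeR). Cx3cr1 likewise had a positive value in LN (0.87) and a negative one in lung (-0.72), and their difference of -1.59 (SE 0.89) did not pass.

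Averaged over both tissues, 0 of the 8 genes passed the adjusted p in edgeR, against 3.9% of all tested genes. Ccr7, Cxcr3, Cxcr4 and Gpr15 had an unadjusted p under 0.05 and negative fold changes, 4 of 8 against 23.1%. Cxcr3 came nearest (log2 -1.78, SE 0.53, adjusted p = 0.0636 by edgeR), followed by Gpr15 (-2.34, SE 0.74, 0.0760) and Ccr7 (-1.16, SE 0.48, 0.160). Without both DT libraries numbered 1 or without lung DT replicate 1 alone, 2 genes were called by edgeR, Cxcr3 (adjusted p = 0.0297 and 0.0313) and Gpr15 (0.0388 and 0.0375), against 9.55% and 7.06% of all tested genes. Cxcr3 was also called without LN DT replicate 4 (0.0414) or lung DT replicate 4 (0.0292) and with limma-voom (0.00211), which called 27.1% of all tested genes. Gpr15 was also called without lung PBS replicate 4 (0.0391) and with DESeq2 (0.0171), which called 11.4%.

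Levels were compared between the 8 genes per kilobase of annotated exon (GENCODE vM21). In LN PBS the order was Cxcr3 (186 ± 39.6 CPM per kilobase), Ccr2 (97.8 ± 11.8), Cxcr6 (56.7 ± 18.7), Ccr7, Gpr15, Ccrl2, Cxcr4 and Cx3cr1 (SD, n = 4). In LN DT the order began with Cxcr6 (155 ± 63.8 CPM per kilobase), Ccr2 (140.0 ± 45.4) and Cxcr3 (64.3 ± 28.4), and went on as in LN PBS. The GENCODE model of Gpr15 (58717433 to 58719070) is longer than its counted span (58717435 to 58718724), so its level per kilobase may be understated. The order of Ccr7 (11.8) and Gpr15 (10.8) in LN DT is therefore not fixed. In lung PBS Cxcr4 (54.0 ± 34.8), Ccr2 (42.6 ± 8.62) and Ccrl2 (33.7 ± 8.30) led and overlapped each other within their SD, and in lung DT Ccr2 (34.9 ± 9.25), Cxcr4 (32.6 ± 12.4) and Ccrl2 (28.4 ± 15.4) did. Taken as shares of the 8 genes per kilobase, Cxcr3 made up 44.3% ± 5.06 in LN PBS and 16.4% ± 6.06 in LN DT, and Cxcr6 13.4% ± 3.52 and 38.3% ± 6.78 (SD, n = 4). In lung, Ccr2, Cxcr4 and Ccrl2 made up 26.6%, 28.9% and 21.2% with PBS and 30.8%, 27.2% and 24.0% with DT.

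**Figure D5:**
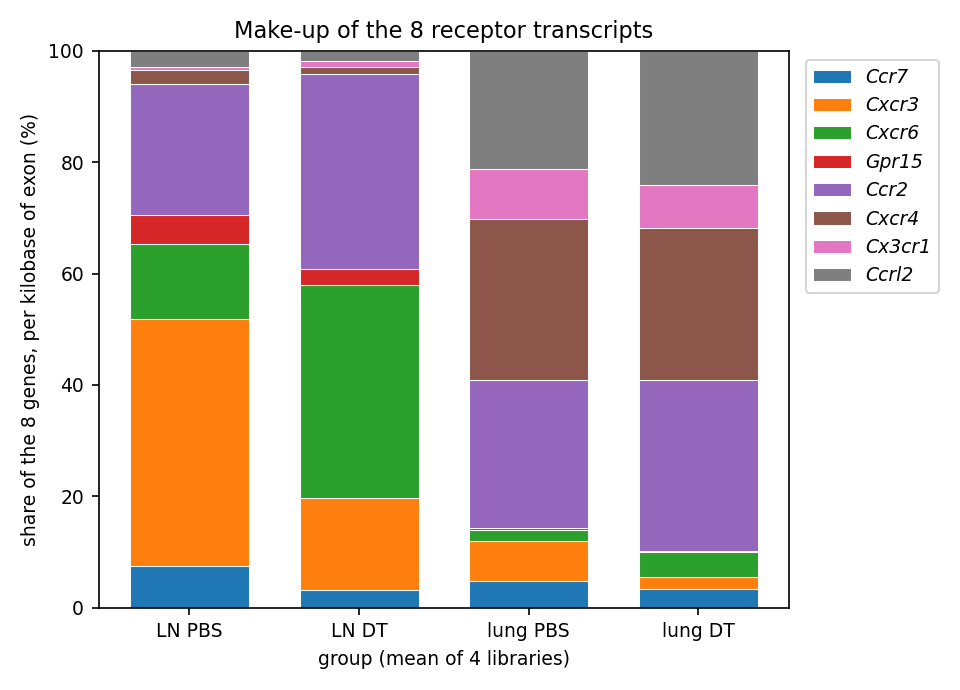
Share of each gene in the summed CPM per kilobase of the 8 genes, in percent, as the mean of 4 libraries per group. Cxcr3 (orange) is the largest share in LN PBS and Cxcr6 (green) in LN DT, and Ccr2, Cxcr4 and Ccrl2 make up most of both lung groups.

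Levels of the 8 genes were described across the 16 libraries by Pearson's r of log2 CPM, which the groups and the scaling shared by the libraries set in large part. Ccr2, Cxcr6 and Gpr15 ran together (r = 0.94 for Ccr2 with Cxcr6, 0.90 for Ccr2 with Gpr15 and 0.87 for Cxcr6 with Gpr15), and Ccr7 ran with Cxcr3 (0.85). Cxcr4, Cx3cr1 and Ccrl2 formed the other set (r between 0.68 and 0.75), and Ccrl2 ran against Cxcr6 (-0.91). Ccr7 and Cxcr6, both higher in LN, had an r of 0.39.

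Outside the 8 genes, 8854 genes with a mean of at least 10 CPM were searched for the most similar pattern over the 16 libraries. Gpr15 was nearest to Cd160 (r = 0.96), a receptor of cytotoxic lymphocytes, followed by Mrps18b (0.95) and Ltb (0.95). Tespa1 was the nearest gene to both Ccr2 (0.93) and Cxcr6 (0.96). Next to Ccr2 came 1700028E10Rik and Gpr18 (both 0.93), and next to Cxcr6 came Pdik1l (0.95) and Klrb1f (0.93), an NK cell receptor gene. For Cxcr3 the nearest were Lpcat3 (0.95), Bcdin3d and Ccdc166 (both 0.94), and for Ccr7 Pias4 (0.96), Mtap (0.93) and Smim10l1 (0.92). Cxcr4 was nearest to Zfp36l2 (0.94), the heat shock gene Dnajb1 (0.93) and Snx18 (0.91), and Ccrl2 to Bambi (0.96), the immediate early gene Ier2 (0.95) and Tubb2a (0.95). Cx3cr1 was nearest to Csrnp1 (0.90), which lies within its annotated span on the same strand and shares no exon base with it, Ecm1 (0.89) and Rasgrp2 (0.87).

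Of 18 other chemokine receptors, 11 passed the filter on low counts. Ccr10, a receptor known from skin-homing T cells and plasma cells, was lower in lung than in LN of DT mice (adjusted p = 0.0319 by edgeR). It had 73 counts in LN DT and 0 in lung DT, at least 23.5-fold lower against a floor of 3 counts over the group.

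Cxcr6 and Ccr2 lie in one stretch of chromosome 9 with other receptor genes, among them Ccr9, Xcr1, Ccr1, Ccr1l1 and Ccr3 (GENCODE vM21, GRCm38, 123678439 to 124113557). Cxcr6 starts 22.1 kb after the end of Ccr9. These genes did not share 1 pattern. Ccr9 had 26 counts in LN PBS and 620 in LN DT, at 1.20, 27.3, 45.7 and 2.86 CPM in the 4 DT libraries (log2 4.6, SE 1.23, adjusted p = 0.172 by edgeR). CCR9 is also known from plasmacytoid dendritic cells, and their marker Siglech had 60 and 2256 counts in the same groups, where the sum of 5 dendritic cell markers lay at 13.4 to 36.3 and 24.4 to 268 CPM. The part of those cells was not tested. Ccr1 had 7 and 108 counts in these groups, Xcr1 30 and 43, and Ccr3 (40 and 44) and Ccr1l1 (0 and 3) did not pass the filter. On the same chromosome, Ccr8 lies 22.2 kb past Cx3cr1 in the annotation, with 29 and 58 counts in LN with PBS and DT, 1 count in lung with PBS and 55 with DT, all 55 in replicate 1.

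Of 13 ligands, 6 passed the filter on low counts, where 13940 of all 49671 genes did. Ccl2, the main ligand of CCR2 and a product of monocytes and macrophages, was the 1 called. It was higher in lung than in LN of PBS mice (adjusted p = 0.0289 by edgeR), with 447 counts against 4. In that comparison 3.61% of all tested genes were called. Its lung PBS libraries stood at 26.8, 35.5, 0.725 and 5.34 CPM. Cxcl16, the ligand of CXCR6, stood at 27.5, 106, 8.10 and 6.33 CPM in lung PBS and at 2.06 to 5.45 CPM in LN PBS and was not called. Its highest library, lung PBS replicate 2, was also the highest of the lung PBS libraries for the summed macrophage and monocyte markers, at 2629.5 CPM; the part of those cells was not tested.

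All 23 genes of the signalling path below the receptors (G protein subunits, receptor kinases, arrestins, PI3K gamma, RAC and RAP1 GTPases and their regulators) passed the filter, and few were called. Rap1b, a GTPase that activates integrins, was higher in lung than in LN of PBS mice (log2 1.86, SE 0.34, adjusted p = 0.00401 by edgeR), at 953 to 1479.8 CPM against 273 to 409.6. Gnaq, a G protein alpha subunit, was higher in lung of PBS mice (1.51, SE 0.38, adjusted p = 0.0340 by edgeR) and higher with DT averaged over the tissues (1.17, SE 0.27, adjusted p = 0.0295). Pik3r5, a regulatory subunit of PI3K gamma, was higher in lung than in LN of DT mice (1.16, SE 0.29, adjusted p = 0.0211 by edgeR). Between the tissues 2 of 23 were called in PBS, against 3.61% of all tested genes, and 1 of 23 in DT, against 6.75%. The share in PBS lay above that of all genes but rests on 2 genes, and the share in DT lay below. With DT within one tissue 0 were called by edgeR, where 0.0646% of all tested genes were in LN and 0.108% in lung. Averaged over the tissues 1 was called with DT, against 3.9% of all tested genes. No gene of this list was called lower in any comparison. The median of the list was 0.13 in PBS between the tissues, against -0.01 over all tested genes.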

How the data were processed

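The submitters' processing notes name HISAT2, HTSeq and the build GRCm38, without versions. The authors deposited raw counts per gene, unnormalized. Here, genes were filtered with filterByExpr (minimum count 10, minimum total 15), scaled by TMM and modelled by robust quasi-likelihood in edgeR 4.0.16 under R 4.3.3, with 4 group means and 12 residual degrees of freedom. Two-sided F tests were adjusted by Benjamini-Hochberg over all 13940 genes, and a gene was called at an adjusted p under 0.05. The standard error (SE) of a log2 fold change is the one implied by F. Marker sums were compared by exact permutation tests. Intervals are 95% and cover counting error only. The tests were tested on simulated data.

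The 8 genes, the lists and the tests were chosen with earlier results of these data known. All 8 genes are named. Of the lists, called genes are named, except 1 that is not reported here, and also genes that neighbour one of the 8 and the 3 genes of most similar pattern. Cxcl16 and Siglech were chosen after their values were seen.

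Same-numbered LN DT and lung DT libraries deviated together (r from 0.184 to 0.412, all above 0.1), which may reflect shared mice. Some pairs of unlike number reached similar values, such as LN DT 2 with lung DT 3 (r = 0.229, against 0.194 with lung DT 2). Of the 4 LN DT libraries, 3 were nearest to their own number. The replicate block changed no call between the tissues in DT. Alternatives were other scalings, filters, DESeq2 1.42.0, limma-voom (limma 3.58.1), a block, a mitochondrial covariate and left-out libraries.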

Additional observations from a re-analysis of the deposited data

Results flagged for a closer look

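Of 32 sets of 4 libraries (8 genes in 4 groups), 5 held a library whose gap to the nearest other exceeded Dixon's 95% critical value. For normally distributed values chance alone gives about 1 in 20 sets. That rate does not hold for Gpr15 in lung, where most libraries held 0 counts, and the sets share libraries, so the 5 are not set against it. LN DT replicate 1 had the lowest Ccr7 of its group, at 14.9 CPM with the others at 25.7 to 26.3, and the highest Cxcr6, at 482 CPM with the others at 219.8 to 263. LN DT replicate 4 had the highest Cxcr3, at 185 CPM with the others at 81.3 to 94.1. For Gpr15, lung PBS replicate 1 stood at 3.28 CPM with the others at 0 to 0.483, and lung DT replicate 1 at 0.287 CPM with the others at 0. The last of these is 2 counts.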

How the results depend on the processing

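Over the alternatives, no comparison of the 8 genes changed its count of calls by over 1.5 times except the following. DT in LN gave 4 calls with limma-voom and 0 otherwise. Lung against LN in PBS gave 3 to 8 calls with 1 library left out. DT averaged over the tissues gave 1 call with DESeq2, 1 with limma-voom, 2 without both DT libraries numbered 1 and 0 to 2 with 1 library left out. No fixed pairing is known. The replicate block left 0 calls with DT in LN and lung. Between the tissues it gave 7 calls in PBS, against 3.86% of all tested genes, and 6 in DT, against 6.38%. A block on the DT libraries alone, chosen after seeing the data, also gave 6 in DT, against 4.06%. Same-numbered libraries of the other group pairs deviated together above 0.1 in at most 1 of 4 numbers. Scaling by total counts alone moved the median of all genes by -0.17 (log2) in lung against LN in PBS and left 6 calls, against 3.78% of all tested genes.

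Fold changes that turned sign were all uncalled. For DT in lung these were Cxcr4, Cx3cr1 and Ccrl2 with the mitochondrial covariate (0.14, 0.24 and 0.13) and Cxcr6 with limma-voom (-1.67), without both DT libraries numbered 1 (-0.66) and without lung DT replicate 1 (-0.62, with a range of -0.62 to 0.95 over single left-out libraries). The interaction of Cxcr4 lay between -0.33 and 0.57 with 1 library left out (-0.33 without LN PBS 2, -0.04 without lung PBS 4, -0.02 without lung DT 4). For DT averaged over the tissues, Ccr2 was -0.17 with limma-voom, -0.11 without both DT libraries numbered 1, -0.048 without LN DT 1 and -0.014 without lung DT 1, within a range of -0.048 to 0.19. Cxcr6 was -0.24 with limma-voom. Cx3cr1 was -0.016 with the replicate block and -0.08, -0.08, -0.11, -0.05 and -0.22 without LN PBS 4, LN DT 4, lung PBS 3, lung PBS 4 and lung DT 4, within a range of -0.22 to 0.24. The difference in summed plasma cell markers between the tissues in PBS was -0.55 CPM on total counts, against 0.33 CPM. The causes were not tested. Depth limits Gpr15 in lung, where a library held 33 counts or fewer.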
